A study of Mus musculus with 6 samples.

Results

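A set of 10 genes of the cytosolic DNA sensing pathway was followed in the mouse line ID8 with and without Trp53, chosen by name among the 41327 genes of the count table: Mb21d1, Ifi204, Aim2, Trex1, Tmem173, Traf3, Tbk1, Ikbke, Irf3 and Irf7. ID8 is an immortalized line from the ovarian surface epithelium of C57BL/6 mice. The 3 Trp53_KO libraries come from ID8 cells of genotype Trp53-/- and the 3 Trp53_WT libraries from ID8 cells of genotype Trp53+/+, all untreated and grown asynchronously, and the RNA was total RNA in a stranded preparation. The series title ties loss of p53 to a chronic state of viral mimicry, in which a cell's own nucleic acids engage sensors of viral genomes. The labels do not say whether each genotype is 1 clone or several, or whether replicates were separate cultures, so p-values rest on the variation among these 6 libraries, part or all of which may be technical.

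In this pathway cGAS, the product of Mb21d1, binds DNA in the cytosol and makes the second messenger cGAMP, which activates STING, the product of Tmem173, on the endoplasmic reticulum. STING then recruits the kinase TBK1 or its relative IKKε, the product of Ikbke, and the kinase phosphorylates the transcription factor IRF3, which enters the nucleus and switches on type I interferon and other genes. IRF7 is a related factor that is itself induced by interferon and widens the response, TRAF3 is a ubiquitin ligase that links sensors to TBK1, TREX1 is an exonuclease that degrades cytosolic DNA, and AIM2 and IFI204 are DNA-binding proteins of the PYHIN family, AIM2 as the sensor of an inflammasome.

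Library totals were between 16597529 and 19574772 gene counts in Trp53_KO and between 15319956 and 19954170 in Trp53_WT. Trp53 itself had 29.6, 25.5 and 25.3 CPM (counts scaled to a common library size, with TMM-adjusted totals) in the Trp53_KO libraries, against 110, 97.3 and 105 CPM in the Trp53_WT libraries (log2 fold change -1.95 ± 0.09 SE; edgeR's quasi-likelihood F test; adjusted p by Benjamini-Hochberg = 2.7e-07). The labels do not say which part of Trp53 was removed. Trp53_WT replicate 1 stood apart from its group: its counts differed from those of replicates 2 and 3 with a chi-square per degree of freedom of 27.5 and 26.9, against 2.01 between replicates 2 and 3 and 4.27 to 8.81 within Trp53_KO. Of 11 markers of the ovarian surface epithelium 10 were detected at 1 CPM or more, and none of 10 lymphoid markers was. At an adjusted p under 0.05, 5 of the 10 detected epithelial markers were higher in Trp53_KO and 4 were lower. Over all tested genes 14.1% were higher and 16.1% lower. Of 12 myeloid markers 2 were detected, Cd14 and Cd68, while Adgre1, Itgam, Tyrobp, Aif1 and Spi1 had 0 counts in all 6 libraries.

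Promoters of 5 of the 10 genes are shown. Ikbke and Irf7, which passed an adjusted p of 0.05, stand beside Tbk1 and Irf3, which did not, together with Aim2. Irf3 lay just outside (edgeR, adjusted p = 0.0539). Ratios within each pair, given below, had the smallest p that 3 against 3 allows (exact permutation test, p = 0.1). Each is the 250 bases before the RefSeq start site in GRCm38.p6, 5′ to 3′ on the strand of the gene. The stretches lie at chr1:131279564-131279813 (minus strand) for Ikbke, chr10:121586795-121587044 (minus strand) for Tbk1, chr7:141266425-141266674 (minus strand) for Irf7, chr7:44997398-44997647 (plus strand) for Irf3 and chr1:173420354-173420603 (plus strand) for Aim2. Capitals mark the GC box, GGGCGG on either strand, a recognition motif of SP-family factors.
Ikbke: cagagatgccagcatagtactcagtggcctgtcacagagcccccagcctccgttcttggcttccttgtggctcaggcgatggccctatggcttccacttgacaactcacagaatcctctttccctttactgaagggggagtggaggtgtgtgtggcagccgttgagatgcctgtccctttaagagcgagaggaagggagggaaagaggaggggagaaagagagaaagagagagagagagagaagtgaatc
Tbk1: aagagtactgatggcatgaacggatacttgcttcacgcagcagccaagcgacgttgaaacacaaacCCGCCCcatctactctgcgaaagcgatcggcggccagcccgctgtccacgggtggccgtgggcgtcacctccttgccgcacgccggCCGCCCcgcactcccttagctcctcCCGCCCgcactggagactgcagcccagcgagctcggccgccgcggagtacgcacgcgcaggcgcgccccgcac
Irf7: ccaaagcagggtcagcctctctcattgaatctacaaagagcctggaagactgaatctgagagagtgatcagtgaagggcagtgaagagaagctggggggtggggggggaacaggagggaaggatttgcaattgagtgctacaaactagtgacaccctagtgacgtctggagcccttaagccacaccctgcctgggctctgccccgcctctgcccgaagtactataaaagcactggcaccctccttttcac
Irf3: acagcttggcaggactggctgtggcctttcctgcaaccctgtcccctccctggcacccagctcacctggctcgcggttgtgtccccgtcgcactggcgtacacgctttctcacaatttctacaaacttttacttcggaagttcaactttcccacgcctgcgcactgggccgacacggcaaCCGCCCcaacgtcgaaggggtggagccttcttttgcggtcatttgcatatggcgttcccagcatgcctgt
Aim2: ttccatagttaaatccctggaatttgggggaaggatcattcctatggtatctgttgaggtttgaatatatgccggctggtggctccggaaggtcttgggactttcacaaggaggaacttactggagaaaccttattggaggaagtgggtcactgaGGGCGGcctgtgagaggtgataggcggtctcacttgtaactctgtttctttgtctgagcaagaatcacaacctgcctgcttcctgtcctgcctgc
The GC box occurs 3 times in the Tbk1 stretch, 1 time in Irf3 and 1 time in Aim2, and not in Ikbke or Irf7. Of the promoters not shown, Traf3, whose RNA was lower, had 4 GC boxes, the most of the 8 genes, Mb21d1 had 0, and the 2 Trex1 rows had 0 and 1. It occurs in 32.7% of all 32851 promoter rows of this length. Across the 8 genes with a promoter row, no match was found on either strand to the ISRE-type motif (GAAA, 2 bases of any kind, GAAA), the GAS-type motif TTCNNNGAA or the p53 half-site, which occur in 2.98%, 7.02% and 7.13% of all rows. The NF-kB consensus, found in 3.90% of all rows, matched only in Traf3 among these 8 genes, at 10 bases before the start site. A count of CpG dinucleotides, added after the values had been seen, gave 31 in Tbk1, 16 in Irf3, 4 in Ikbke, 4 in Aim2 and 3 in Irf7, against a median of 6 and quartiles of 2 and 16 over all rows. Traf3 had 49 CpG dinucleotides and Mb21d1 had 9. These matches are a description of the letters in the windows.

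RNA of the DNA sensing and TBK1 genes was lower in Trp53_KO cells for 5 genes: Ikbke fell by 50.8%, Irf7 fell by 62.1% and Aim2 fell by 55.5%, and Traf3 and Mb21d1 fell by smaller amounts. The central kinase Tbk1, the adaptor Tmem173, the transcription factor Irf3 and the sensor Ifi204 did not pass the threshold, and Trex1 had no counts. Of the 10 genes 9 could be tested, and of these 5 were lower, 0 were higher and 4 did not pass an adjusted p of 0.05. Among all 13651 genes tested, 30.3% passed in either direction, 16.1% lower and 14.1% higher. All 9 log2 fold changes were below 0, where 52.3% of all tested genes were, and their median was -0.26 against -0.02 for all tested genes. In 8 of the 9 genes every Trp53_KO library lay below every Trp53_WT library, which was so for 24.2% of all tested genes. At least 2-fold lower and past the threshold were 3 of the 9, against 4.62% of all tested genes. In bulk RNA, fewer cells that express a gene and less RNA per cell cannot be told apart.

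**Figure D1:**
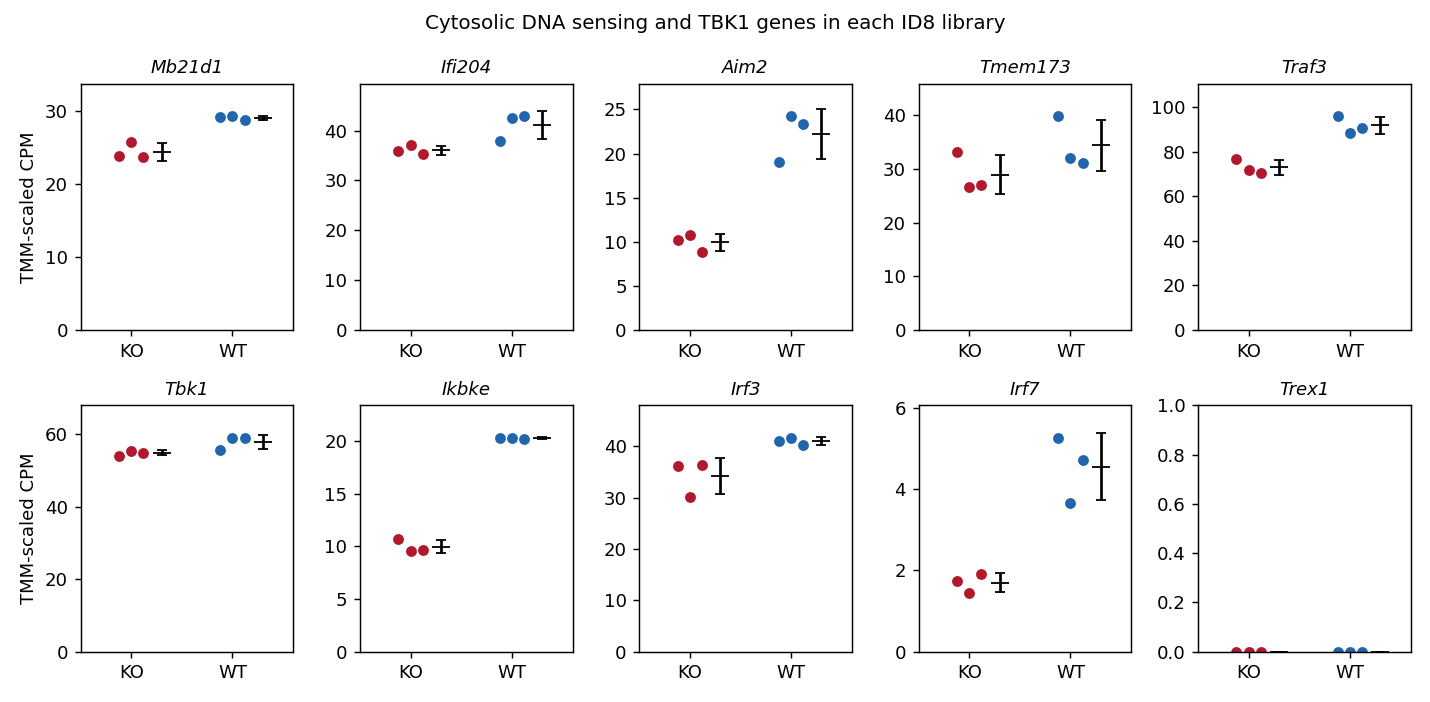
TMM-scaled CPM of each of the 10 genes in the 3 Trp53_KO (red, left) and 3 Trp53_WT (blue, right) libraries, 1 panel per gene with its own axis from 0; points are libraries, and the black cross line and whiskers are the group mean and SD. Ikbke, Irf7 and Aim2 show the widest gaps, Tbk1 a difference of -0.08 on the log2 scale, and Trex1 is at 0 throughout.

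Among the sensors, Mb21d1 (cGAS; GRCm38 chromosome 9, 78430526 to 78443237, minus strand, named Cgas in the annotation) had 23.8, 25.8 and 23.6 CPM in Trp53_KO libraries, against 29.1, 29.3 and 28.7 CPM in Trp53_WT libraries. The groups did not overlap, and the Trp53_WT libraries lay within 1 CPM of each other. The means were 24.4 ± 1.21 CPM in Trp53_KO and 29.1 ± 0.298 CPM in Trp53_WT (SD, n = 3 each), and the log2 fold change was -0.25 ± 0.08 (SE; edgeR, adjusted p = 0.032). This call did not hold in DESeq2 (log2 fold change -0.24, adjusted p = 0.101) and was lost when any 1 of 4 libraries was left out, namely Trp53_KO replicate 1 (adjusted p = 0.145), Trp53_KO replicate 3 (0.0990), Trp53_WT replicate 2 (0.117) or Trp53_WT replicate 3 (0.0957; edgeR throughout). On the opposite strand the model Gm8093 covers 4.87% of the Mb21d1 exon bases.

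Aim2 (chromosome 1, 173350879 to 173466040, plus strand) encodes the sensor that nucleates an inflammasome on DNA. It had 10.1, 10.7 and 8.88 CPM in Trp53_KO libraries, against 19.0, 24.3 and 23.4 CPM in Trp53_WT libraries. Every Trp53_KO library was well below the lowest Trp53_WT library, which was replicate 1. Mean levels were 9.92 ± 0.951 CPM in Trp53_KO and 22.2 ± 2.80 CPM in Trp53_WT (SD, n = 3 each), and the log2 fold change was -1.17 ± 0.12 (SE; edgeR, adjusted p = 6.7e-05).

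Ifi204 (chromosome 1, 173747293 to 173766943, minus strand), a PYHIN protein that binds DNA and has been linked to STING in mouse cells, had 35.8, 37.1 and 35.4 CPM in Trp53_KO libraries, against 37.9, 42.5 and 43.0 CPM in Trp53_WT libraries. The groups did not overlap, but the gap between Trp53_KO replicate 2 and Trp53_WT replicate 1 was under 1 CPM. The log2 fold change was -0.19 ± 0.08 (SE; edgeR, adjusted p = 0.103). Without Trp53_WT replicate 1 it was -0.25 and passed (edgeR, adjusted p = 0.017).

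The ratio of counts of Aim2 to Ifi204 within a library, which does not depend on library scaling, was 28.4%, 29.0% and 25.2% in Trp53_KO, against 50.3%, 57.2% and 54.4% in Trp53_WT. The log2 ratio differed by -0.97, and all 3 Trp53_KO libraries were below all 3 Trp53_WT libraries (two-sided exact permutation test, p = 0.1, adjusted p = 0.1 over 3 ratios, the smallest p that 3 against 3 allows).

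Aim2 and Ifi204 belong to a cluster of PYHIN genes on chromosome 1, of which 12 carry a family name in the count table and 7 were tested. Of these 7, 3 were lower, Aim2 being 1 of them, 0 were higher and 4 did not pass, Ifi204 being 1 of them. The median log2 fold change was -0.42. Among all tested genes 16.1% were lower and 14.1% higher. Ifi209, one of the interferon-inducible p200 genes, was almost absent from Trp53_KO libraries, with 0.561, 0.181 and 0.372 CPM, against 5.74, 6.23 and 6.22 CPM in Trp53_WT libraries (log2 fold change -3.97; edgeR, adjusted p = 2.2e-06). Mndal had between 9.94 and 11.8 CPM in the Trp53_KO libraries, against 16.5 to 19.2 CPM in the Trp53_WT libraries (-0.77; adjusted p = 5.1e-04).

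Levels of Mnda, listed as Ifi211 in the annotation, and of Ifi205 overlapped between the groups, with log2 fold changes of 0.09 and 0.12 (edgeR, adjusted p = 0.510 and 0.578). For Ifi203 the log2 fold change was -0.42 (edgeR, adjusted p = 0.243), and Trp53_WT replicate 1 had 13.2 CPM where the other Trp53_WT libraries had 6.03 and 7.67. Ifi214 had 0 counts over the Trp53_KO libraries and 13 over the Trp53_WT libraries, at least 4.44-fold lower when 3 counts are taken as the floor over the group. PYHIN genes are close paralogs, so how reads were divided among them by the authors' counting is uncertain. In the plot of PYHIN genes by chromosome order, Ifi204, which did not pass, lies between Ifi209 and Mndal, which were both lower.

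**Figure D2:**
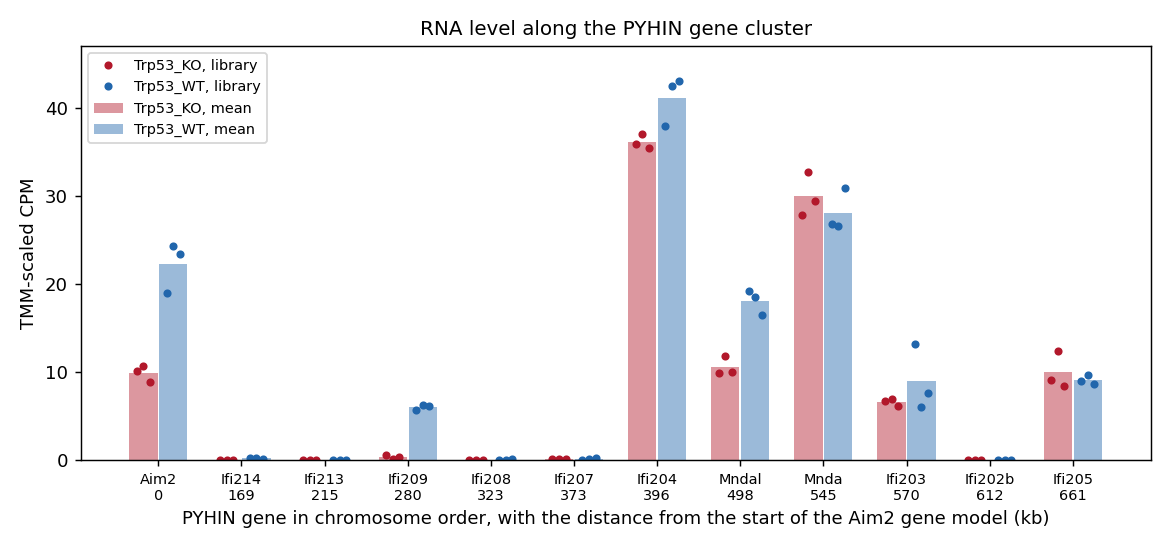
TMM-scaled CPM of the 12 PYHIN genes in chromosome order from the start of the Aim2 gene model, whose distance in kb stands under each name; bars are means and points are libraries of Trp53_KO (red, left) and Trp53_WT (blue, right). Aim2, Ifi209 and Mndal are lower in all 3 Trp53_KO libraries, while Mnda and Ifi205 overlap.

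Trex1 (chromosome 9, 109057933 to 109059734, minus strand) had 0 counts in all 6 libraries, where 3 counts would be 0.153 to 0.181 CPM in Trp53_KO libraries and 0.148 to 0.203 CPM in Trp53_WT libraries. All of its exon bases are shared on the same strand with Atrip, a checkpoint gene whose longer model overlaps it. Of the 17 protein-coding genes whose exon bases are all shared in this way 14 had 0 counts (82.4%), against 5056 of 18155 (27.8%) with no shared exon base. Reads from the bases that Trex1 and Atrip share cannot be told apart, and a zero here is no measure of Trex1 RNA. Atrip had 32.5, 30.0 and 31.6 CPM in Trp53_KO libraries, against 29.0, 29.3 and 29.6 CPM in Trp53_WT libraries (log2 fold change 0.10; edgeR, adjusted p = 0.350).

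Among the adaptors, Tmem173 (STING; chromosome 18, 35733679 to 35740554, minus strand) had 33.1, 26.6 and 27.1 CPM in Trp53_KO libraries, against 39.9, 32.0 and 31.1 CPM in Trp53_WT libraries. It was the only one of the 9 tested genes whose groups overlapped, Trp53_KO replicate 1 lying above Trp53_WT replicates 2 and 3. The log2 fold change was -0.24 ± 0.12 (SE; edgeR, adjusted p = 0.167), with an approximate unadjusted 95% interval of the fold from 0.699 to 1.02.

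Traf3 (chromosome 12, 111166370 to 111267153, plus strand) had 76.7, 71.8 and 70.5 CPM in Trp53_KO libraries, against 96.1, 88.4 and 90.7 CPM in Trp53_WT libraries. The groups were separate, and the means were 73.0 ± 3.27 CPM in Trp53_KO and 91.8 ± 3.95 CPM in Trp53_WT (SD, n = 3 each). Traf3 fell by 20.4% in the fit (log2 fold change -0.33 ± 0.07 SE; edgeR, adjusted p = 0.0060).

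Of the kinases, Tbk1 (chromosome 10, 121546455 to 121586787, minus strand) had 54.0, 55.4 and 54.8 CPM in Trp53_KO libraries, against 55.6, 58.9 and 59.0 CPM in Trp53_WT libraries. The groups did not overlap but were separated by less than 1 CPM, and the log2 fold change of -0.08 ± 0.07 did not pass (SE; edgeR, adjusted p = 0.429). The approximate 95% interval of the fold ran from 0.850 to 1.05, so a fall as large as that of Ikbke lies outside it.

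Ikbke (chromosome 1, 131254343 to 131279606, minus strand), which encodes the inducible relative of TBK1, had 10.7, 9.54 and 9.68 CPM in Trp53_KO libraries, against 20.3, 20.3 and 20.2 CPM in Trp53_WT libraries. The Trp53_WT libraries were almost the same and each lay above every Trp53_KO library. Mean levels were 9.96 ± 0.609 CPM in Trp53_KO and 20.3 ± 0.083 CPM in Trp53_WT (SD, n = 3 each), and the log2 fold change was -1.02 ± 0.09 (SE; edgeR, adjusted p = 2.2e-05). Models on the opposite strand cover 2.48% of its exon bases.

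Set against Tbk1 in the same library, Ikbke counts were 19.8%, 17.3% and 17.7% of Tbk1 counts in Trp53_KO, against 36.6%, 34.5% and 34.2% in Trp53_WT. The log2 ratio differed by -0.95, with the 3 Trp53_KO libraries all below the 3 Trp53_WT libraries (two-sided exact permutation test, p = 0.1, the smallest allowed; adjusted p = 0.1 over 3 ratios).

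Of the transcription factors, Irf3 (chromosome 7, 44997648 to 45002848, plus strand) had 36.2, 30.2 and 36.4 CPM in Trp53_KO libraries, against 41.1, 41.7 and 40.3 CPM in Trp53_WT libraries. Trp53_KO replicate 2 was the lowest, and the groups did not overlap. The log2 fold change of -0.26 ± 0.09 lay just outside the threshold (SE; edgeR, adjusted p = 0.0539). It passed without Trp53_WT replicate 1 (-0.26; edgeR, adjusted p = 0.031) and in limma-voom (-0.26; adjusted p = 0.048), and Bcl2l12 on the opposite strand covers 2.56% of its exon bases.

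Irf7 (chromosome 7, 141262706 to 141266481, minus strand) was scarce, with 34, 24 and 36 counts in Trp53_KO libraries, against 78, 74 and 88 counts in Trp53_WT libraries. In CPM these were 1.73, 1.45 and 1.91 in Trp53_KO and 5.27, 3.66 and 4.72 in Trp53_WT. No Trp53_KO library reached the lowest Trp53_WT library, replicate 2. The log2 fold change was -1.40 ± 0.20 (SE; edgeR, adjusted p = 4.7e-04), the largest among the 9 tested genes, and Phrf1 on the opposite strand covers 1.19% of its exon bases.

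Irf7 counts were 4.86%, 4.90% and 5.33% of Irf3 counts in Trp53_KO libraries, against 12.9%, 8.82% and 11.8% in Trp53_WT libraries. All Trp53_KO ratios were below all Trp53_WT ratios, and the log2 ratio differed by -1.13 (two-sided exact permutation test, p = 0.1, the smallest allowed; adjusted p = 0.1 over 3 ratios).

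Per kb of merged exons the RNA levels covered a wide range in both genotypes. Tbk1 had the highest level, 14.0 CPM per kb in Trp53_KO and 14.8 in Trp53_WT. In Trp53_KO it was followed by Tmem173 (10.6), Ifi204 (10.1), Irf3 (9.95) and Traf3 (9.93 CPM per kb), whose library ranges overlapped from each to the next. In Trp53_WT the library ranges of Tbk1, Tmem173 (12.5), Traf3 (12.5), Irf3 (11.9) and Ifi204 (11.5 CPM per kb) overlapped from each to the next. Mb21d1 lay below these at 5.91 CPM per kb in Trp53_KO and 7.04 in Trp53_WT, and the scarce end was taken by the 3 genes with the largest changes. Aim2 had 2.83 CPM per kb in Trp53_KO and 6.35 in Trp53_WT. Ikbke had 1.10 CPM per kb in Trp53_KO and 2.25 in Trp53_WT, and Irf7 had 0.450 in Trp53_KO and 1.20 in Trp53_WT. With the RefSeq transcript length in place of merged exons, Irf3 moved to place 2 in Trp53_KO and to place 1 in Trp53_WT. Ikbke stayed at place 8 and Irf7 at place 9 in both. The scarce end in Trp53_WT depended on the length used. With RefSeq lengths Aim2 (7.83 CPM per kb) lay above Mb21d1 (7.18) there, and Ikbke had 6.23. The length of Ikbke was 9.02 kb in merged exons and 3.25 kb in RefSeq.

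**Figure D3:**
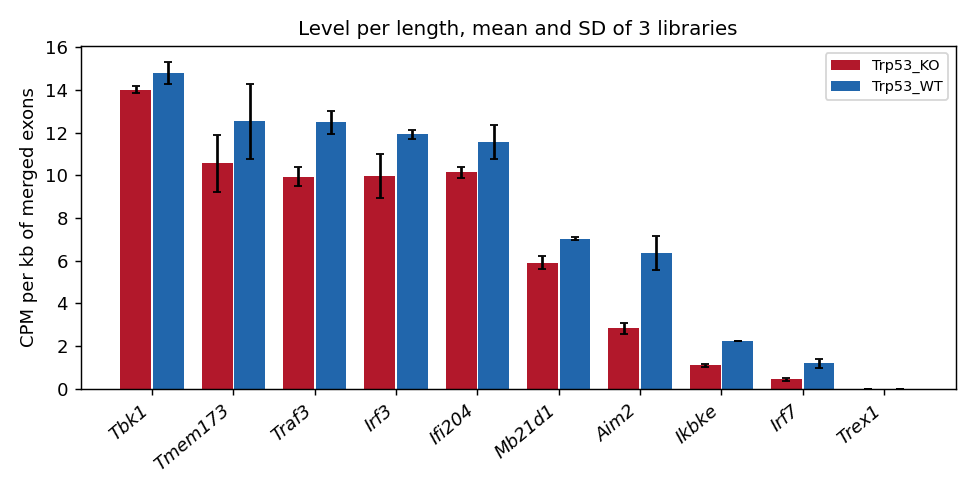
RNA level in CPM per kb of merged exons, on a linear axis from 0, for the 10 genes; bars are means and whiskers the SD of 3 libraries, with Trp53_KO in red (left) and Trp53_WT in blue (right). Tbk1 is highest at 14.0 in Trp53_KO and 14.8 in Trp53_WT, Irf7 is lowest of the genes with counts at 0.450 in Trp53_KO and 1.20 in Trp53_WT, and Trex1 is at 0.

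In the wider gene groups of the pathway, the IRF family divided. Of its 6 tested members, Irf3 and Irf7 included, 1 was higher, 3 were lower and 2 did not pass. Without Irf3 and Irf7, 1 of 4 was higher, 2 were lower and 1 did not pass. Over all tested genes 14.1% were higher and 16.1% lower. Irf5, which acts downstream of Toll-like receptors and other sensors, had 39.1, 36.5 and 39.8 CPM in Trp53_KO libraries, against 6.01, 8.01 and 8.74 CPM in Trp53_WT libraries. Every Trp53_KO library was far above every Trp53_WT library (log2 fold change 2.33 ± 0.12 SE; edgeR, adjusted p = 7.6e-07), the opposite direction from Irf7; Tnpo3 on the opposite strand covers 14.1% of Irf5 exon bases. Irf9, the DNA-binding subunit of the interferon-activated complex ISGF3, and Irf1 were lower by smaller amounts, with log2 fold changes of -0.39 and -0.31 (edgeR, adjusted p = 0.0050 and 0.0046). Irf4 and Irf8, factors of blood cells, had 0 counts in all 6 libraries.

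Of 23 tested adaptors and regulators of TBK1, 2 were higher, 3 were lower and 18 did not pass. Their median log2 fold change was 0.00, and the shares over all tested genes were 14.1% higher and 16.1% lower. Tbkbp1, a scaffold that binds TBK1 and IKKε, had 5.76, 6.70 and 6.81 CPM in Trp53_KO libraries, against 2.23, 1.88 and 1.88 CPM in Trp53_WT libraries, with no overlap (log2 fold change 1.69 ± 0.15 SE; edgeR, adjusted p = 2.4e-05). Traf2, a ubiquitin ligase of TNF receptor signalling, was higher by 0.38 on the log2 scale (adjusted p = 0.0033). Optn, an adaptor that brings TBK1 to ubiquitin chains, had 27.8, 32.1 and 31.6 CPM in Trp53_KO libraries, against 46.2, 53.2 and 51.0 CPM in Trp53_WT libraries (-0.72; edgeR, adjusted p = 2.3e-04). Otud5, a deubiquitinase that acts on TRAF3, was also lower (-0.56; adjusted p = 4.9e-04). The scaffold Tank and the RNA-sensing adaptor Mavs had log2 fold changes of 0.06 and 0.05 (adjusted p = 0.736 and 0.634).

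Of 24 tested STING traffic and regulator genes, 4 were higher, 5 were lower and 15 did not pass, shares near those of all tested genes (14.1% higher and 16.1% lower). Insig1, a sterol-regulated protein of the endoplasmic reticulum that helps ubiquitinate STING, was higher at 136 CPM in Trp53_KO and 83.1 CPM in Trp53_WT (log2 fold change 0.71; edgeR, adjusted p = 6.1e-05). Rhbdf2, which stabilizes STING, and Ssr2, which joins it to the translocon, were higher by 0.60 and 0.40 (adjusted p = 0.0014 and 0.0027). Trim56, a ubiquitin ligase linked to STING and cGAS, was lower at 80.2 CPM in Trp53_KO and 114 CPM in Trp53_WT (-0.51; edgeR, adjusted p = 3.4e-04). The count of lower genes in this list was 2 without Trp53_KO replicate 1 or replicate 3, and 3 without Trp53_KO replicate 2 or Trp53_WT replicate 3.

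Of 8 tested genes that move or degrade cGAMP, 0 were higher, 4 were lower and 4 did not pass. Over all tested genes the shares were 14.1% higher and 16.1% lower. Slc46a3, a lysosomal transporter whose family includes cGAMP importers, had 4 counts in each Trp53_KO library, against 22, 23 and 25 counts in Trp53_WT libraries (log2 fold change -2.55; edgeR, adjusted p = 1.9e-04). Lrrc8e, a subunit of the volume-regulated anion channel that conducts cGAMP, had 2.04, 1.81 and 2.13 CPM in Trp53_KO libraries, against 3.92, 7.02 and 5.58 CPM in Trp53_WT libraries (-1.48; edgeR, adjusted p = 7.9e-04). The shared channel subunit Lrrc8a and the exporter Abcc1 were lower by less, -0.29 and -0.27 (edgeR, adjusted p = 0.025 and 0.030). The Lrrc8a call held under 6 of 13 alternatives: it was lost in DESeq2 (adjusted p = 0.0700), with no filter (0.0659), with a replicate block (0.0523) and without Trp53_KO replicate 1 (0.118), Trp53_KO replicate 3 (0.0686), Trp53_WT replicate 2 (0.0527) or Trp53_WT replicate 3 (0.0703). The Abcc1 call was lost without Trp53_KO replicate 2 (0.0874), Trp53_KO replicate 3 (0.0851) or Trp53_WT replicate 2 (0.0600; edgeR). The count of lower genes was 2 without Trp53_KO replicate 3 or Trp53_WT replicate 2. Enpp1, the enzyme that hydrolyses cGAMP, and the importer Slc19a1 did not pass, with log2 fold changes of 0.21 and 0.08 (edgeR, adjusted p = 0.0888 and 0.529).

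Of 16 other DNA sensors tested, 2 were higher, 2 were lower and 12 did not pass, with a median log2 fold change of 0.01. These shares were near those of all tested genes (14.1% higher and 16.1% lower). Prkdc and Xrcc5, both subunits of the DNA-dependent protein kinase, were lower, with log2 fold changes of -0.67 and -0.61 (edgeR, adjusted p = 2.9e-04 and 3.6e-04), whereas their partner Xrcc6 had 0.12 (adjusted p = 0.259). Zcchc3, a cofactor of cGAS, and Polr3f, a subunit of RNA polymerase III, were higher by 0.43 and 0.32 (edgeR, adjusted p = 0.0058 and 0.0098). Without Trp53_WT replicate 1 the list held 4 higher and 4 lower genes.

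Of 10 tested nucleases and their partners 1 was higher, 1 was lower and 8 did not pass. The shares of all tested genes were 14.1% higher and 16.1% lower. Banf1, a chromatin-bridging protein that keeps cGAS from nuclear DNA, was higher at 150 CPM in Trp53_KO and 114 CPM in Trp53_WT (log2 fold change 0.40; edgeR, adjusted p = 0.0039). Dnase1l1 was lower (-0.41; edgeR, adjusted p = 0.012), a call lost without Trp53_WT replicate 3 (adjusted p = 0.0543). Without Trp53_WT replicate 1 the list held 2 higher genes. Samhd1, which lowers the pool of deoxynucleotides, had a log2 fold change of 0.01 (edgeR, adjusted p = 0.963).

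Along the inflammasome arm, 3 of 5 tested genes were lower, 0 were higher and 2 did not pass, Aim2 being 1 of the lower. For comparison, 16.1% of all tested genes were lower and 14.1% higher. Gsdmd, the pore-forming executor of pyroptosis, had 124, 122 and 129 CPM in Trp53_KO libraries, against 191, 218 and 216 CPM in Trp53_WT libraries, with no overlap (log2 fold change -0.74 ± 0.07 SE; edgeR, adjusted p = 3.8e-05). Casp8 was lower too (log2 fold change -0.41; edgeR, adjusted p = 0.0015). Pycard, the adaptor that joins AIM2 to caspase-1, and Il1b had 0 counts in all 6 libraries, and Casp1 had 5 counts over the Trp53_KO libraries and 8 over the Trp53_WT libraries. The exons of Pycard and Il1b share 0% of their bases with another gene on the same strand (12.8% of Pycard and 1.31% of Il1b on the opposite strand), and RNA of both was not detectable at this depth in either genotype.

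Of 13 tested genes that STING and IRF3 can switch on, 0 were higher, 7 were lower and 6 did not pass. Their median log2 fold change was -0.72, and 16.1% of all tested genes were lower and 14.1% higher. Ddx58, which encodes the RNA sensor RIG-I, had means of 46.2 CPM in Trp53_KO and 73.7 CPM in Trp53_WT (-0.67; edgeR, adjusted p = 7.3e-05). Ifi44, Oasl2 and Isg20, all interferon-induced, had log2 fold changes of -1.62, -0.71 and -0.52 (edgeR, adjusted p = 0.0035, 0.0049 and 0.0051). The chemokine gene Cxcl10 had 0.58 (adjusted p = 0.0709) and Ifit2 had 0.25 (adjusted p = 0.176), neither past the threshold. Ifnb1 and Ifna4, which encode type I interferons, had 0 counts in all 6 libraries. Without Trp53_KO replicate 3 the list held 2 higher genes, and without Trp53_WT replicate 2 it held 1. Lower genes numbered 5 to 8 with 1 library left out, 6 in DESeq2 and 9 with no filter. Ifi44 was scarce, with 28 counts over the Trp53_KO libraries and 84 over the Trp53_WT libraries. Also scarce among the lower genes were Isg15 (46 over Trp53_KO and 100 over Trp53_WT), Cmpk2 (60 and 161) and Usp18 (33 and 60). Usp18 is counted among the lower STING regulators as well.

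**Figure D4:**
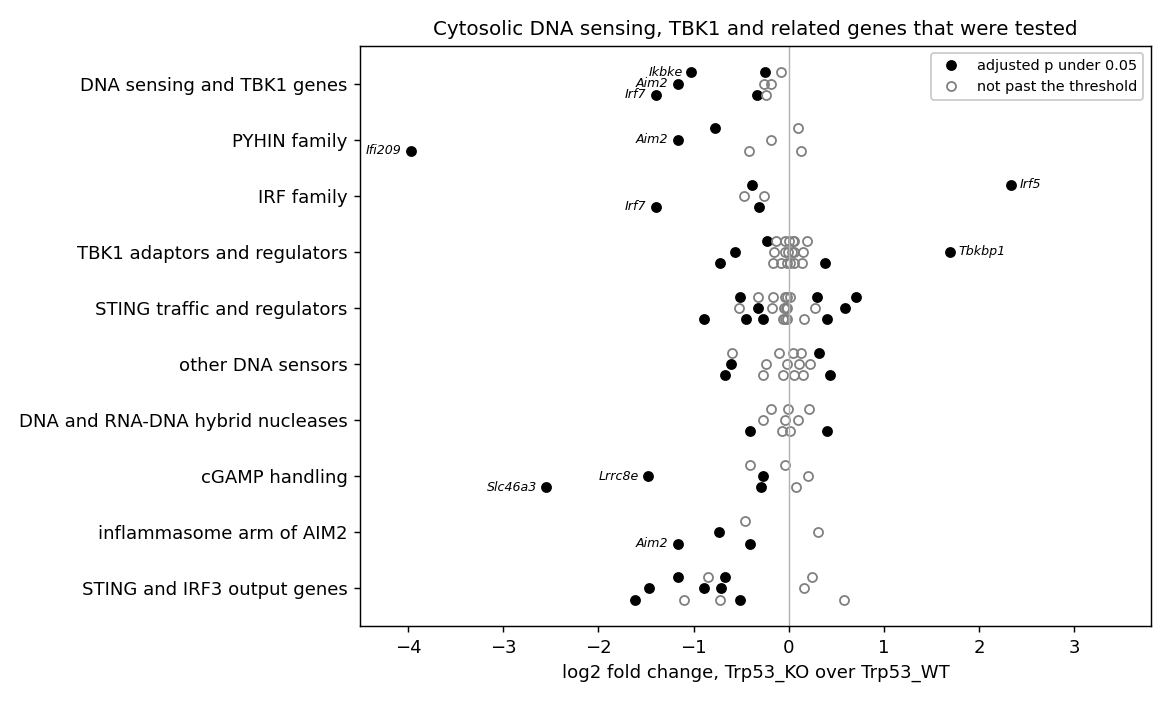
Log2 fold change of Trp53_KO over Trp53_WT for each tested gene (1 point per gene), in rows by gene group; filled points have an edgeR adjusted p under 0.05 and open points do not. In the top row all 9 points lie left of 0, while Irf5 at 2.33 and Tbkbp1 at 1.69 stand to the right in their groups.

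Beside these results, the summed level of the 12 myeloid markers was 8.40 to 10.8 CPM in Trp53_KO libraries and 32.5 to 35.4 CPM in Trp53_WT libraries. Cd14, which encodes a lipopolysaccharide co-receptor, made up most of it, with means of 5.09 CPM in Trp53_KO and 28.3 CPM in Trp53_WT (log2 fold change -2.47; edgeR, adjusted p = 1.0e-06), while the 5 myeloid markers named above were at 0. Summed lymphoid markers were 0.102 to 0.266 CPM in Trp53_KO and 0 to 0.297 CPM in Trp53_WT, with 8 of 10 at 0. Summed endothelial markers were 31.3 to 38.7 CPM in Trp53_KO and 16.3 to 17.5 CPM in Trp53_WT, with Cdh5, Kdr and Emcn at 0. All 3 of the 8 endothelial markers that were detected passed, where 30.3% of all tested genes passed in either direction. The adhesion gene Pecam1 had 106 counts over the Trp53_KO libraries and 8 over the Trp53_WT libraries (log2 fold change 3.64; edgeR, adjusted p = 3.6e-05), and the junction gene Esam was also higher (1.13; adjusted p = 3.7e-05). Vwf, too scarce to test, had 0 counts over Trp53_KO and 16 over Trp53_WT, at least 5.46-fold lower with a floor of 3 counts. Egfl7 was lower (-0.90; edgeR, adjusted p = 0.017), a call lost in DESeq2 (adjusted p = 0.0913), without Trp53_KO replicate 1 (edgeR, 0.0698) and without Trp53_WT replicate 3 (edgeR, 0.0710).

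Markers of the ovarian surface epithelium also differed between the genotypes: of 10 tested, 5 were higher, 4 were lower and 1 did not pass. Of all tested genes 30.3% passed in either direction. The summed level of these markers was 3740 to 4018 CPM in Trp53_KO and 3588 to 3666 CPM in Trp53_WT. The mesothelial gene Upk3b averaged 531 CPM in Trp53_KO and 73.7 CPM in Trp53_WT (log2 fold change 2.85; edgeR, adjusted p = 2.7e-08), and Gata4, a transcription factor of gonadal cells, 134 CPM in Trp53_KO and 30.0 CPM in Trp53_WT (2.16; adjusted p = 5.6e-08). Wt1 and Krt7 were higher too (0.82 and 0.81; edgeR, adjusted p = 1.3e-05 and 0.0012), as was Cdh2 (0.28; adjusted p = 0.0092). Msln, Krt8, Krt19 and Nr2f2 were lower, with log2 fold changes of -0.26, -0.31, -0.30 and -0.60 (edgeR, adjusted p = 0.011, 0.0058, 0.015 and 0.010). The part of these marker groups in the results was not tested.

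The genes whose profile over the 6 libraries was most like that of each of the 3 members with the lowest adjusted p were sought among tested genes with at least 5 CPM. Likeness was the root mean square difference of centred log2 CPM, and all these libraries are shared. For Ikbke, among 9727 genes, Poglut1 came nearest at 0.0301. Ccdc80 at 0.0978 and Nfkbiz, a nuclear regulator of NF-kB targets, at 0.0997 came nearest to Aim2, and Atoh8 at 0.0863 and Dock8 at 0.112 to Irf7.

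The authors' deposited table of repeats, a second readout of the same libraries, held 384 rows within the bodies of these genes. At an FDR under 0.05 in the authors' deposited table, 2 of the 384 rows were lower, against 0.284% of all its rows, and 1 was higher, against 0.388%. Both lower rows were in Aim2 and read in the direction of the gene: in the authors' deposited table the RMER19B element, an ERVK-type long terminal repeat of 805 bases at chromosome 1, 173427115 to 173427919, had a log2 fold change of -1.32 (FDR = 0.0034). The L1M5 element of 341 bases at chromosome 1, 173422089 to 173422429, placed in an intron, had -2.21 in the authors' deposited table (FDR = 0.0034). A B2_Mm1t element of 174 bases within an intron of Mb21d1, at chromosome 9, 78438273 to 78438446, had 4.85 (FDR = 0.014) in the authors' deposited table, read opposite to the gene. At an FDR under 0.01 the authors' deposited table kept both lower rows, against 0.174% of all rows, and 0 higher rows, against 0.228%.

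In the authors' deposited table, 44 of the 48 rows in Aim2 read in the gene's direction had a value below 0 (91.7%, median -1.25), and 25 of 31 in Ikbke did (80.6%, median -0.89). In Tbk1 the authors' deposited table had 31 of 73 rows below 0 (42.5%, median 0.00), and in Traf3 88 of 139 (63.3%, median -0.41). Irf3 had 5 of 6 below 0 in the authors' deposited table (83.3%) and Tmem173 9 of 13 (69.2%), though neither gene passed. Mb21d1 had 22 of 36 (61.1%) and Ifi204 14 of 29 (48.3%) in the authors' deposited table. The share of rows below 0 over all of the authors' deposited table was not computed. Rows within a gene share its transcript and these libraries, so they are a description of the same difference along the gene body and not replicates of it.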

How the data were processed

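The gene values deposited by the authors are raw counts in whole numbers, for 3 Trp53_KO and 3 Trp53_WT libraries. The submitters' processing notes name STAR, featureCounts, edgeR and mm10. Whether counting used strand, the annotation and all versions and settings are not given in the sources used. The authors' deposited table of repeats gives a fold change and an FDR, an adjusted p-value, per locus and read direction. Its scale was taken as log2: over 740 rows in exons or 3′ untranslated regions, values deposited by the authors were at the median 1.07 times the log2 fold change of the gene, where natural logarithms would give 0.693. The row suffix was taken as read direction, since it matched the gene's strand in 88.0% of 38905 rows.

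Of 41327 genes, 18744 had no count and 13651 passed filterByExpr. A quasi-likelihood model with genotype as its only term was fitted in edgeR 4.0.16 (R 4.3.3, limma 3.58.1) to all 6 TMM-scaled libraries, with Benjamini-Hochberg adjustment over all tested genes and a threshold of 0.05. The biological coefficient of variation was 9.75%. SE is the absolute log2 fold change over the square root of F, and is approximate. All replicate pairs differed by more than sampling noise, so all 6 libraries were used. Levels per length used GENCODE gene models of GRCm38, and promoters came from RefSeq (GRCm38.p6). Floors of 3 counts cover counting error only. On counts simulated for this comparison over 13651 genes, 42 of 100 genes given a log2 change of 0.5 were recovered. Of 100 given a change of 1, 82 were recovered, with 0 of the wrong sign and 11 false calls. Only these genes were changed, far fewer than the 30.3% that passed in the data, and no library was made to stand apart. The recovery and false calls may therefore differ in the data.

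The members and gene lists were chosen with earlier results of these data known. Besides the members and Trp53, the genes named were up to 4 per list with the lowest adjusted p, the 2 most alike genes for each of 3 members, and the PYHIN neighbours. Some genes that this rule or the lists cover are not reported here. Others (such as Atrip, Cdh2, Msln, Krt8, Krt19, Nr2f2, Xrcc6, Tank, Mavs, Samhd1, Enpp1, Slc19a1, Cxcl10, Ifit2 and genes at or near 0 counts) were chosen after their values were seen. Of 22 PYHIN names, 12 are in the table and 5 are older names of those. The other 5 were not matched by synonym, among them Ifi211, the name that the annotation gives to Mnda. Alternatives were RLE size factors, library totals only, no filter, at least 1 CPM in 3 libraries, a replicate block, DESeq2 1.42.0, limma-voom and leaving out each library. The planned ratio of Trex1 to Mb21d1 had no value.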

Additional observations from a re-analysis of the deposited data

How the results depend on the processing

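Under 13 alternatives Ikbke, Irf7, Aim2 and Traf3 kept direction and call, with log2 fold changes of -1.06 to -0.99, -1.53 to -1.29, -1.27 to -1.09 and -0.36 to -0.30, and Tbk1 and Tmem173 never passed. Mb21d1 did not pass with no filter (-0.23, adjusted p = 0.111), in DESeq2 (-0.24, 0.101) or with a replicate block (-0.25, 0.0587), and lay between -0.29 and -0.22 with 1 library left out. Irf3 passed in limma-voom (-0.26, 0.048) and ranged from -0.30 to -0.17, and Ifi204 from -0.25 to -0.15. Members lower numbered 4 to 7 over libraries left out, and 4 with the replicate block. Deviations of same-numbered libraries from their group means had correlations of -0.05, 0.08 and -0.12. With 3 libraries per group this cannot exclude a pairing, and the labels do not say what the replicate numbers mean.

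Lists gave, over libraries left out, 2 to 4 other sensors higher and 2 to 4 lower; 1 to 2 nucleases higher and 0 to 1 lower; 0 to 1 cGAMP genes higher and 2 to 4 lower; 2 to 6 STING regulators lower; and 0 to 2 output genes higher. Nucleases higher were 2 with RLE size factors and 2 in limma-voom, IRF genes lower 5 with no filter, and output genes higher 1 with no filter and 1 with the replicate block. With RefSeq transcript length the places were, in Trp53_KO, 2 for Irf3 and 4 for Tmem173, and in Trp53_WT 1 for Irf3, 2 for Tbk1, 3 for Ifi204, 4 for Tmem173, 5 for Traf3, 6 for Aim2 and 7 for Mb21d1. Repeat rows higher were 0 at an FDR under 0.01 and 0 when read in the gene's direction only. The causes were not tested. Depth limits Irf7, with 94 counts over Trp53_KO and 240 over Trp53_WT. Over all genes, calls ranged from 1388 to 2418 higher and 1589 to 2566 lower with 1 library left out.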
